A study of Mus musculus with 59 samples.

Results

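Macrophages are phagocytic cells of the innate immune system that enter a tissue as blood monocytes or renew there from cells seeded early in life. In the mammary tumors of MMTV-PyMT mice, in which the mouse mammary tumor virus promoter drives the polyoma middle T oncogene in mammary epithelium, macrophages are abundant, depend on colony stimulating factor 1 and its receptor, and are known for their part in vessel growth and tumor cell spread. The comparison described here set the 15 macrophage-rich tumors against the 15 macrophage-poor tumors among 59 mammary tumors. Each tumor received a macrophage score, the mean of log2(normalized count + 1) of 4 genes: Adgre1, which encodes the F4/80 surface protein, Csf1r, the receptor of colony stimulating factor 1, C1qa, a chain of complement C1q, and Cd68, a glycoprotein of endosomes and lysosomes. The 15 highest and the 15 lowest scores formed the 2 classes, and the other 29 tumors are called middle tumors.

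All mice were B6.FVB-Tg(MMTV-PyVT)634Mul/LellJ and PyMT (+/-), so every group carried the transgene. Mice had received methylparaben (20 tumors), propylparaben (20 tumors) or vehicle (19 tumors), and total RNA of flash-frozen tumor tissue was sequenced. The sources used here do not give dose, route, duration or age, nor whether any 2 tumors came from 1 mouse, so p-values measure the spread between tumors. The macrophage-rich class held 5 methylparaben, 6 propylparaben and 4 vehicle tumors, and the macrophage-poor class 4 methylparaben, 4 propylparaben and 7 vehicle tumors. Treatment was therefore a covariate in the fit of the classes. In bulk tissue, fewer cells of a type and less RNA per cell cannot be told apart, so a higher class value is a higher share of tumor RNA.

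Several libraries differed from the rest in ways that bear on the classes. The 7 tumors lowest on the first principal component of all 59 (19.1% of the variance; vehicle replicates 7, 8, 10, 13, 14 and 19 and propylparaben replicate 1) were all macrophage-poor. The sign of that component was set so that mitosis genes are high at its low end. No gap marks the cut at 7. Vehicle replicate 13, the last tumor inside it, lay at -36.3 and vehicle replicate 1, a middle tumor, at -31.8. At the other end, methylparaben replicate 5, a middle tumor, lay at 56.3 and the next tumor at 32.5. The macrophage score of the 7 lowest tumors ran from 3.65 to 4.95 (median 4.56), against 4.73 to 5.11 (median 4.97) in the other 8 macrophage-poor tumors. Leaving the 7 out therefore also narrows the score difference between the classes and leaves 8 macrophage-poor tumors. What ended a call without them was not tested. Most counts below are also given without these 7 tumors. Their mean level of 20 mitosis genes on the log2 scale ran from 5.55 to 6.29 (median 6.03), against 4.58 to 5.72 (median 4.94) in the other 8 macrophage-poor tumors and 4.40 to 5.31 (median 4.82) in the macrophage-rich tumors. Reads on genes were 1166502 to 2032789 per library. Of 6 library measures compared between the classes by permutation of the 30 tumors (100000 resamples, two-sided, Benjamini-Hochberg adjusted over the 6), only the share of reads aligned to several places passed, with 12.4 ± 0.524% in macrophage-rich and 13.5 ± 1.22% in macrophage-poor tumors (SD, n = 15 each, adjusted p = 0.0276). That share had medians of 14.6% in the 7 tumors and 12.6% in the other 8 macrophage-poor tumors, and its part in the results was not tested. Single tumors stood apart for other cell types: the summed normalized counts of 10 skin genes reached 971 in macrophage-rich methylparaben replicate 10, those of 11 neutrophil genes 1026 in macrophage-rich vehicle replicate 4, and those of 8 plasma cell genes 591 in macrophage-poor methylparaben replicate 15.

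The 4 score genes chose the classes, so their values are a description. Adgre1 had a lowest, median and highest normalized count of 36.5, 46.6 and 64.2 in macrophage-rich tumors and 8.22, 20.8 and 29.6 in macrophage-poor tumors. C1qa had 108, 121 and 161 in macrophage-rich tumors and 21.8, 69.1 and 93.7 in macrophage-poor tumors. For both genes, every macrophage-rich tumor lay above every macrophage-poor tumor. Csf1r had 30.9, 50.5 and 73.9 in macrophage-rich tumors and 7.40, 24.3 and 40.004 in macrophage-poor tumors, and Cd68 18.8, 25.1 and 31.2 in macrophage-rich and 11.3, 13.1 and 29.3 in macrophage-poor tumors. The classes overlapped for these 2 genes, and the highest macrophage-poor Cd68 value was that of vehicle replicate 2. The score was 5.59 to 5.998 (median 5.71) in macrophage-rich, 5.12 to 5.57 (median 5.32) in middle and 3.65 to 5.11 (median 4.75) in macrophage-poor tumors. At the upper limit of the classes, vehicle replicate 3 scored 5.59 and the next tumor, propylparaben replicate 19, 5.57. At the lower limit, methylparaben replicate 15 scored 5.11 and the next tumor above it, vehicle replicate 6, 5.12.

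**Figure D1:**
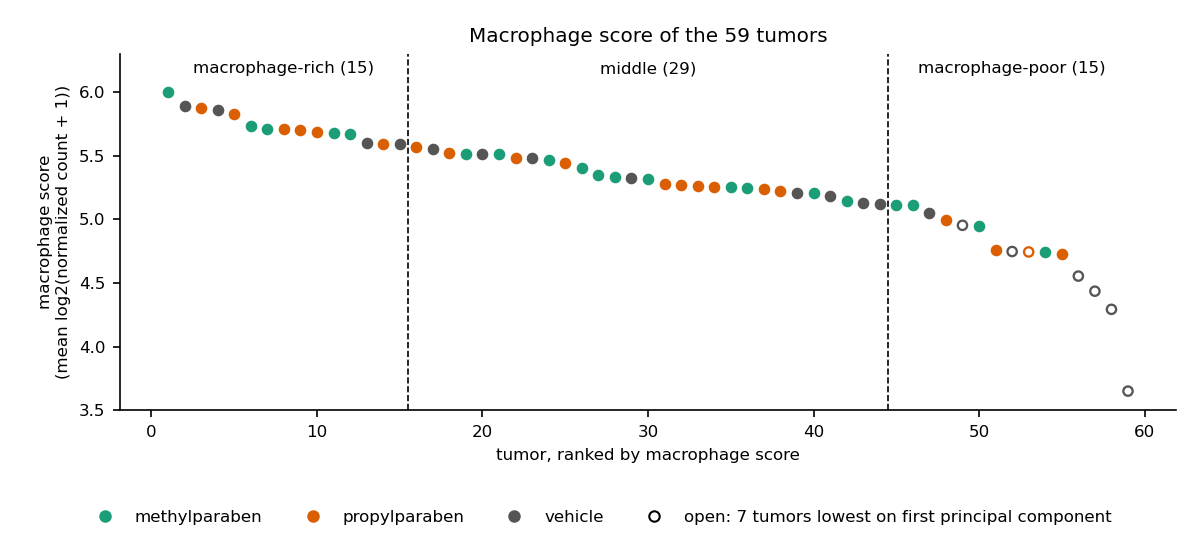
Macrophage score (mean log2(normalized count + 1) of Adgre1, Csf1r, C1qa and Cd68) of each of the 59 tumors, in rank order from the highest; colors give the treatment, dashed lines the limits of the classes and open symbols the 7 tumors lowest on the first principal component. The score falls slowly from 5.998 to 4.73 over 55 tumors, and the last 4, all vehicle tumors, lie between 4.56 and 3.65.

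The score itself was not shown to differ between treatments. It averaged 5.37 ± 0.299 in methylparaben tumors and 5.11 ± 0.573 in vehicle tumors (SD, n = 20 and 19), a difference of 0.26 ± 0.15 (SE) with a permutation p of 0.0798. In propylparaben tumors it averaged 5.36 ± 0.349 (SD, n = 20), 0.25 ± 0.15 (SE) above vehicle, with a permutation p of 0.110. Both differences had an adjusted p of 0.165 over the 3 pairs of treatments. Propylparaben minus methylparaben was -0.01 ± 0.10 (SE, adjusted p = 0.892). The spread in vehicle tumors was the widest, with 4 of them below every paraben tumor.

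Promoters of 4 genes of the macrophage-rich side are printed because PU.1 (Spi1), the factor that macrophages need to form, recognises purine-rich sites with the core GAGGAA. In the sequences from RefSeq (GRCm38.p6, 250 bases before to 50 after the start of the gene, strand of the gene), capitals mark GAGGAA or its complement TTCCTC. They are Cd68 at chr11:69666121-69666420 (minus strand), C1qb at chr4:136886151-136886450 (minus strand), Mrc1, the mannose receptor, at chr2:14229164-14229463 (plus strand), and Ctsc, the lysosomal protease cathepsin C, at chr7:88277835-88278134 (plus strand).
Cd68: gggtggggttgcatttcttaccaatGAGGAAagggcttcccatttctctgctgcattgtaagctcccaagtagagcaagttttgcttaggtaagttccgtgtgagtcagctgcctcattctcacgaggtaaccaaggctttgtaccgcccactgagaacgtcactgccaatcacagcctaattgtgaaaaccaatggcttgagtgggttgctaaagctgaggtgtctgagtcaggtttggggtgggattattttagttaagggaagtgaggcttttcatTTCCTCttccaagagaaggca
C1qb: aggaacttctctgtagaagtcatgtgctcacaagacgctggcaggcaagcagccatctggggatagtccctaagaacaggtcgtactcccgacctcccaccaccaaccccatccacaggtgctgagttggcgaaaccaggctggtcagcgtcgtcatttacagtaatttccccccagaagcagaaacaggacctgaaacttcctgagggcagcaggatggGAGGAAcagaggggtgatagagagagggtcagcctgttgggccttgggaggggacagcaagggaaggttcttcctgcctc
Mrc1: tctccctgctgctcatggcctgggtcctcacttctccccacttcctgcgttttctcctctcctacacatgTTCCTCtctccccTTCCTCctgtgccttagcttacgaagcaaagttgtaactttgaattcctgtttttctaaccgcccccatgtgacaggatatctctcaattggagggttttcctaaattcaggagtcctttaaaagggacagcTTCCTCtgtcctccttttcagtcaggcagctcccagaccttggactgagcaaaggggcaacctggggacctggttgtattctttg
Ctsc: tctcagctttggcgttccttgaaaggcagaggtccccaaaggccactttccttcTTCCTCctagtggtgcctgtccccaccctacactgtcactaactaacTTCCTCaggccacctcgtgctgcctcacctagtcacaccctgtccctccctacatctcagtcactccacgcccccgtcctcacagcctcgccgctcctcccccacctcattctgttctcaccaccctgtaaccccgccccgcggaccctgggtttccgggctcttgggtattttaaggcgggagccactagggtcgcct
The match count was 2 in Cd68, 1 in C1qb, 3 in Mrc1 and 2 in Ctsc. The 4 genes, of which Cd68 is a score gene, were picked without a set rule. Each holds the motif, so they are examples and no measure of how common it is. Of the 97 genes in 9 lists of macrophage and monocyte function, 70 had a promoter in the table and 31 of these (44.3%) held the motif on either strand, against 7652 of 27025 promoters in all (28.3%). It was present in 392 of 1187 promoters of genes that rose in macrophage-rich tumors and in 186 of 719 promoters (25.9%) of genes that fell. A match is a run of letters and not a measured site.

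Of 14483 genes tested with limma, 1612 (11.1%) were higher and 899 (6.21%) lower in macrophage-rich tumors at an adjusted p under 0.05, with log2 differences between 0.16 and 2.96 in size. Of these calls 64.2% were higher, against 52.9% under quantile normalization, which gave 1401 higher and 1245 lower. Without the 7 tumors, 775 (5.35%) were higher and 141 (0.974%) lower, and without vehicle replicate 5, a macrophage-rich tumor, 1334 were higher and 577 lower. The shares of all genes tested, with and without the 7 tumors, are the background for the list counts below. Lists share members, so their counts are not independent. Mrc1 is in the phagocytic receptor, resident macrophage and alternative activation lists, and Ccr2 in the chemokine receptor and monocyte lists. Treatment and the mean levels of adipocyte, muscle, B cell, T cell and fibroblast genes together accounted for 79.0% of the variance of the class term over the 30 tumors. With these 5 scores as covariates, little of the class term was left to test, and 0 genes passed in either direction. As a check of the class names, 10 of 11 other macrophage markers rose and 0 fell (9 without the 7 tumors), and Mertk did not pass. Genes made by the same cells as the score genes move with the score by its construction.

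Apart from the score genes, 17 genes (0.117% of those tested) had every macrophage-rich tumor above every macrophage-poor tumor, and 0 had the reverse. They were Mrc1, Fcer1g, Rarres2, Ccr2, Adamts5, C3ar1, Ctsc, Slc9a9, Csf2rb, Cd47, Dab2, Itgb2, Maf, Cyth4, C1qb, Tmem100 and Serpinf1, listed after their values were seen. Among them, Mrc1 (chr2:14229392-14332057, plus strand, GENCODE M21 on GRCm38) had 88.8, 117 and 159 in macrophage-rich tumors and 22.6, 44.02 and 87.9 in macrophage-poor tumors, a log2 difference of 1.37 ± 0.13 (SE; adjusted p = 6.82e-08).

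Ccr2 (chr9:124101950-124113557, plus strand), the receptor through which classical monocytes leave the marrow and enter tissue, had 94.1, 124 and 172 in macrophage-rich tumors and 14.8, 42.8 and 90.7 in macrophage-poor tumors. The classes did not overlap, and the log2 difference was 1.49 ± 0.16 (SE; adjusted p = 2.00e-07; 0.89 within methylparaben, 1.69 within propylparaben and 1.81 within vehicle tumors). Its ligand Ccl2 had 10.4, 30.1 and 68.2 in macrophage-rich and 9.04, 14.7 and 35.8 in macrophage-poor tumors. The overlap was wide, and its difference of 0.74 ± 0.24 (adjusted p = 0.0302) no longer passed without the 7 tumors (adjusted p = 0.324), without vehicle replicate 5 (0.0607) or without propylparaben replicate 12 (0.0548). Csf1, the main ligand of the Csf1r protein, had 25.7, 38.1 and 55.7 in macrophage-rich and 19.2, 29.2 and 33.7 in macrophage-poor tumors, with a difference of 0.44 ± 0.1 (adjusted p = 0.00309), and Il34, its other ligand, differed by 0.62 ± 0.19 (adjusted p = 0.0195). Both ligands overlapped between classes, and without the 7 tumors their adjusted p was 0.067 and 0.0767. Csf2rb, the shared signaling chain of the receptors for GM-CSF and interleukins 3 and 5, rose by 1.19 ± 0.15 without overlap, while Csf2, which encodes GM-CSF, was at 0 in all 59 tumors.

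Of 6 genes of the colony stimulating factor and growth factor group tested, 4 rose and 0 fell (median log2 difference 0.45, 1 without the 7 tumors), beside a median of -0.01 and 11.1% higher over all genes tested. Of 20 chemokine ligands, 11 rose and 0 fell (median 0.71, 5 without the 7), and of 9 chemokine receptors, 6 rose and 0 fell (median 0.8, 4 without the 7). Ccl8 rose by 1.25 ± 0.18, the eotaxin Ccl11 by 1.61 ± 0.27, Ccl6 by 1.08 ± 0.21 and Cxcl14 by 1.1 ± 0.21. Each of these 4 kept an adjusted p under 0.05 without the 7 tumors (highest 0.0364, for Ccl6). Of 9 monocyte genes, 7 rose and 0 fell (median 0.83, 4 without the 7), with Ly6c2, a surface protein of classical monocytes, at 1.82, 5.61 and 20.9 in macrophage-rich and 0, 1.27 and 3.44 in macrophage-poor tumors (log2 difference 1.41 ± 0.24, adjusted p = 7.17e-05).

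Of 14 myeloid transcription factor genes, 9 rose and 0 fell (median 0.66, 8 without the 7 tumors). Maf, a factor of mature and resident macrophages, had 123, 144 and 231 in macrophage-rich tumors and 19.7, 57.3 and 112 in macrophage-poor tumors. Its classes did not overlap, with a difference of 1.25 ± 0.16 (adjusted p = 1.88e-06). Spi1, which encodes PU.1, had 18.6, 22.8 and 28.9 in macrophage-rich and 6.57, 11.8 and 20.2 in macrophage-poor tumors, with only a narrow overlap and a difference of 0.82 ± 0.12 (adjusted p = 8.74e-06). Mitf, a regulator of lysosome genes, rose by 1.05 ± 0.18 and Fli1, an ETS factor also made by endothelium, by 0.91 ± 0.14. These 4 genes passed without the 7 tumors.

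Of 12 phagocytic receptor genes, 10 rose and 0 fell (median 0.81, 6 without the 7 tumors), and of 10 Fc receptor and adaptor genes, 9 rose and 0 fell (median 0.86, 8 without the 7). Itgb2 and Itgam encode the 2 chains of the complement receptor CD11b/CD18. Itgb2 had 19.02, 22.6 and 32.3 in macrophage-rich and 2.88, 11.02 and 15.03 in macrophage-poor tumors without overlap, a difference of 1.15 ± 0.15 (adjusted p = 1.81e-06), and Itgam, whose classes overlapped only between 28.2 and 28.8 normalized counts, rose by 1.29 ± 0.15. Axl, a receptor tyrosine kinase for the uptake of dying cells, had 43.9, 55.5 and 76.2 in macrophage-rich and 5.34, 21.96 and 51.1 in macrophage-poor tumors and rose by 1.15 ± 0.17. Fcer1g, the signaling chain shared by Fc receptors, had 47.4, 54.8 and 70.7 in macrophage-rich and 13.97, 25.9 and 38.5 in macrophage-poor tumors without overlap and rose by 1.04 ± 0.11 (adjusted p = 1.27e-07). The inhibitory receptor Fcgr2b rose by 1.1 ± 0.17, the activating receptor Fcgr3 by 0.8 ± 0.14 and the adaptor Tyrobp by 0.73 ± 0.13. Trem2, a lipid receptor that signals through Tyrobp, had 1.65, 5.18 and 9.82 in macrophage-rich and 1.49, 3.61 and 6.14 in macrophage-poor tumors and did not pass (0.28 ± 0.18, adjusted p = 0.3).

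Of 13 complement genes, 12 rose and 0 fell (median 1.08, 11 without the 7 tumors). C3ar1, the receptor of the C3a fragment, had 44.8, 65.1 and 85.2 in macrophage-rich and 11.5, 29.3 and 41.2 in macrophage-poor tumors, without overlap, and differed by 1.14 ± 0.13 (adjusted p = 5.47e-07). C1qb and C1qc, which form C1q together with the product of the score gene C1qa, rose by 0.91 ± 0.12 and 0.9 ± 0.11. C1s1, a C1 protease, rose by 1.4 ± 0.17 and Serping1, the inhibitor of that protease, by 1.3 ± 0.16. Both are also made by fibroblasts, whose 14 markers all rose in the same tumors, and the part of fibroblasts in these 2 genes was not tested. Of 6 genes of the phagocyte NADPH oxidase, which makes superoxide, 5 rose and 0 fell (median 0.86, 4 without the 7), with Cybb at 86.7, 124 and 161 in macrophage-rich and 17.7, 67.5 and 108 in macrophage-poor tumors (0.85 ± 0.15, adjusted p = 1.09e-04) and Ncf1 higher by 0.94 ± 0.15.

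**Figure D2:**
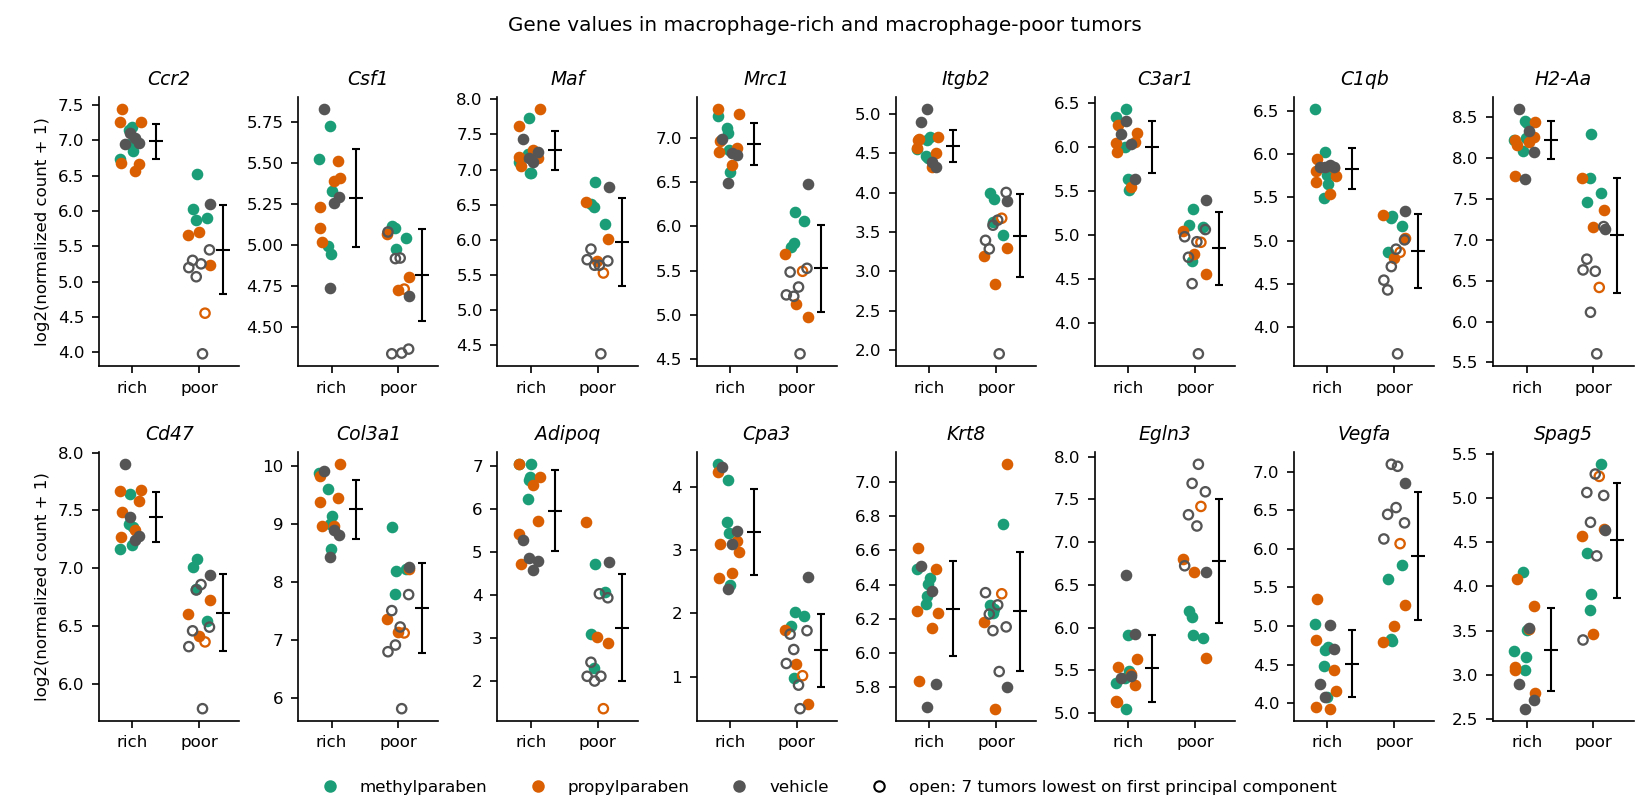
log2(normalized count + 1) of 16 genes in the 15 macrophage-rich and 15 macrophage-poor tumors; each point is a tumor, colored by treatment, open symbols are the 7 tumors lowest on the first principal component, and bars show the class mean ± SD. Ccr2, Maf, Mrc1, Itgb2, C3ar1, C1qb and Cd47 separate the classes without overlap, Krt8 did not pass, and 7 of the 8 highest Vegfa values are open symbols.

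Of 12 resident macrophage genes, 9 rose and 0 fell (median 0.91, 7 without the 7 tumors). Igf1, a growth factor that such macrophages and fibroblasts secrete, had 66.9, 102 and 160.1 in macrophage-rich and 13.6, 28.5 and 75.9 in macrophage-poor tumors, with a small overlap, and rose by 1.61 ± 0.17 (adjusted p = 2.00e-07). Folr2, a folate receptor of resident macrophages, rose by 1.26 ± 0.18 and Cd163, the hemoglobin scavenger receptor, by 0.97 ± 0.25. Cd163 did not pass without the 7 (adjusted p = 0.0988). Of 8 alternative activation genes, 5 rose and 0 fell (median 1.06, 4 without the 7). The lectin Clec10a had 21.4, 48.3 and 82.5 in macrophage-rich and 5.75, 16.3 and 49.2 in macrophage-poor tumors (1.57 ± 0.22, adjusted p = 5.67e-06), Mgl2, its near-copy, rose by 1.73 ± 0.26, and Il4ra, the interleukin 4 receptor, by 0.74 ± 0.11. Retnla, a secreted product of interleukin 4 signaling, had 7.80, 66.8 and 135 in macrophage-rich and 2.63, 11.97 and 68.6 in macrophage-poor tumors and rose by 1.88 ± 0.37, with an adjusted p of 0.0519 without the 7. Arg1, the arginase of alternatively activated mouse macrophages, was at 15.4, 62.4 and 132 in macrophage-rich and 19.05, 91.4 and 214 in macrophage-poor tumors, and did not pass (-0.35 ± 0.27, adjusted p = 0.407).

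Of 11 inflammatory activation genes, 6 rose and 0 fell (median 0.67), and 2 of them passed without the 7 tumors, Il12b and Nlrp3. Il12b, a chain of interleukins 12 and 23, had 1.71, 3.45 and 7.12 in macrophage-rich and 0.437, 0.984 and 3.43 in macrophage-poor tumors and rose by 0.95 ± 0.18 (adjusted p = 3.69e-04). The costimulatory genes Cd80 and Cd86 rose by 0.92 ± 0.23 and 0.69 ± 0.17, and Nlrp3, the inflammasome sensor, by 0.67 ± 0.18. Nos2 and Il10 averaged under 1 normalized count over the 59 tumors and were not tested. Of 20 interferon-stimulated genes, 0 rose and 0 fell (median 0.05).

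Of 21 lysosomal genes, 10 rose and 0 fell, with a median of 0.23 (6 without the 7 tumors). Ctsc had 141, 183 and 263 in macrophage-rich and 58.8, 99.4 and 129 in macrophage-poor tumors without overlap (0.89 ± 0.1, adjusted p = 5.47e-07). The protease Ctss, which trims the invariant chain, rose by 0.7 ± 0.11, the lysozyme Lyz2 by 0.93 ± 0.16 and the protease Ctsb by 0.46 ± 0.07. Of 14 lipid handling genes, 6 rose and 0 fell (median 0.43, 4 without the 7). Pltp, the phospholipid transfer protein, rose by 1.53 ± 0.2, the lipase Lpl by 1.37 ± 0.19, the galectin Lgals3 by 0.6 ± 0.14 and the cholesterol exporter Abca1 by 0.55 ± 0.12. Lpl is also an adipocyte gene, 12 of 13 adipocyte genes rose, and the part of fat in the lipid handling list was not tested. Spp1, osteopontin, had 208, 693 and 1859.9 in macrophage-rich and 127, 479 and 1143 in macrophage-poor tumors and did not pass (0.68 ± 0.3, adjusted p = 0.121).

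Of 9 MHC class II genes, which present antigen to helper T cells, 7 rose and 0 fell (median 0.89), and 7 rose without the 7 tumors. H2-Aa had 214, 298 and 386 in macrophage-rich and 47.7, 142 and 313 in macrophage-poor tumors (1.07 ± 0.16, adjusted p = 8.82e-06), and the highest macrophage-poor value overlapped the macrophage-rich range. H2-Ab1 rose by 1.03 ± 0.13, H2-Eb1 by 1.07 ± 0.15 and Ciita, the activator of these genes, by 0.89 ± 0.12. Of 14 MHC class I genes, 3 rose and 0 fell (median 0.26), and 0 without the 7. Over all genes tested, 11.1% rose, and 5.35% without the 7. B2m, the light chain, rose by 0.48 ± 0.14 (adjusted p = 0.0162).

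Among other leukocytes, mast cell genes had the largest median difference. All 4 mast cell genes tested rose (median 1.88, 3 without the 7 tumors), and the mast cell protease Cpa3 had 4.21, 7.85 and 19.4 in macrophage-rich and 0.411, 1.69 and 4.97 in macrophage-poor tumors (1.89 ± 0.22, adjusted p = 7.87e-07). Cma1 rose by 2.05 ± 0.24 and Tpsb2 by 1.88 ± 0.25. The summed normalized counts of the 6 listed mast cell genes were 12.8, 26.03 and 61.3 in macrophage-rich and 1.23, 5.58 and 15.9 in macrophage-poor tumors. Of 10 dendritic cell genes 5 rose (0 without the 7, 3 without propylparaben replicate 1), among them Xcr1 (0.92 ± 0.21) and Cd209a (1.31 ± 0.25). Of 6 natural killer and cytotoxic genes 4 rose (2 without the 7), with Klrk1 higher by 1.14 ± 0.21 and Nkg7 by 0.9 ± 0.22. Among 7 T cell genes tested only Icos, a costimulatory receptor, rose (1.14 ± 0.28), beside 11.1% of all genes tested. Icos did not pass without the 7 (adjusted p = 0.137). Without macrophage-poor methylparaben replicate 15, which held the highest B cell and plasma cell sums, 3 T cell genes and 2 plasma cell genes rose. Cd8a had 0, 1.46 and 4.71 in macrophage-rich and 0, 0.581 and 2.29 in macrophage-poor tumors (adjusted p = 0.0805), and Cd4 and Foxp3 averaged under 1 and were not tested. With all 30 tumors, 0 of 4 B cell and 0 of 6 plasma cell genes passed, nor did S100a8, a neutrophil protein (adjusted p = 0.52), which was lower without vehicle replicate 4 (adjusted p = 0.0263). Of 6 neutrophil genes 2 rose, Il1r2 (0.8 ± 0.25) and Hdc (0.73 ± 0.21), and 0 without the 7.

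Cd47 (chr16:49800533-49915010, plus strand), the signal on many cells that restrains uptake by macrophages, had 143, 166 and 238 in macrophage-rich and 54.2, 96.5 and 134 in macrophage-poor tumors. The classes did not overlap, and the difference was 0.81 ± 0.1 (adjusted p = 1.47e-06; 0.66 without the 7 tumors). Sirpa, its receptor on macrophages, had 25.04, 42.8 and 62.6 in macrophage-rich and 10.7, 22.8 and 45.9 in macrophage-poor tumors and rose by 0.78 ± 0.16. Of 7 checkpoint genes tested, 3 rose and 1 fell (median 0.41; 3 and 0 without the 7), the third being Vsir, the inhibitory receptor VISTA (0.56 ± 0.1). The one that fell was Cd24a, another restraining signal and an epithelial surface protein, at 193, 254 and 305 in macrophage-rich and 266, 329.6 and 375 in macrophage-poor tumors (-0.29 ± 0.07, adjusted p = 0.00184). Cd274, which encodes PD-L1, had 1.08, 3.67 and 7.36 in macrophage-rich and 0.979, 3.07 and 10.3 in macrophage-poor tumors and did not pass (adjusted p = 0.762).

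**Figure D3:**
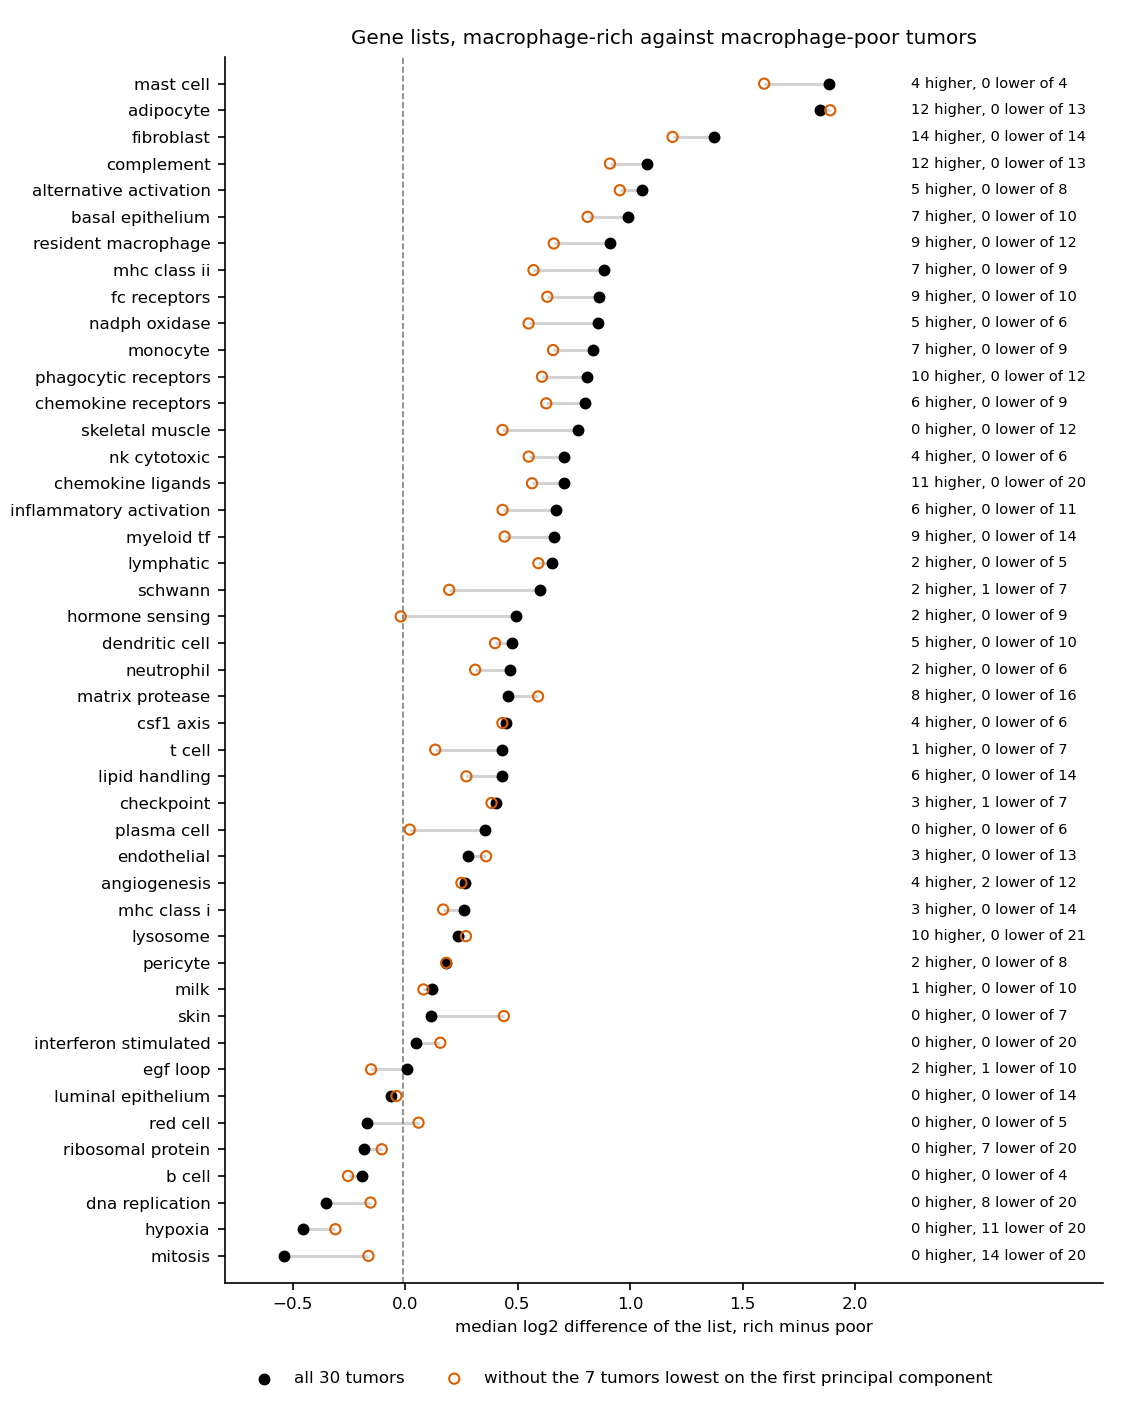
Median log2 difference, rich minus poor, of the tested members of each gene list, over all 30 tumors (filled) and without the 7 tumors lowest on the first principal component (open), with the number of members that passed beside each list; the dashed line is the median of all 14483 genes tested. Mast cell, adipocyte and fibroblast lists lie farthest to the right, and mitosis, hypoxia and DNA replication lists farthest to the left.

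Fat genes made up most of the largest rises. Of the 12 genes with the largest rises and a mean of at least 10, 7 are known chiefly from fat cells or fat metabolism (Cfd, Pck1, Plin1, Adipoq, Car3, Cidec and Fabp4). Cfd, complement factor D or adipsin, had 38.9, 152 and 486 in macrophage-rich and 2.05, 13.8 and 79.2 in macrophage-poor tumors (2.96 ± 0.42, adjusted p = 6.26e-06). Adipoq, adiponectin, had 22.9, 74.2 and 131 in macrophage-rich and 1.54, 7.10 and 50.6 in macrophage-poor tumors (2.59 ± 0.35, adjusted p = 3.85e-06; 3.22 within methylparaben, 2.81 within propylparaben and 1.83 within vehicle tumors). Of 13 adipocyte genes, 12 rose and 0 fell (median 1.84, 10 without the 7 tumors), and their summed normalized counts were 349, 830.1 and 1789 in macrophage-rich and 98.6, 189 and 500.1 in macrophage-poor tumors. Retnla, above, is made by fat tissue as well as by macrophages, and the part of fat in its value was not tested. The other large rises were Wfdc21 (2.01 ± 0.3), the matrix protein Thbs4 (1.94 ± 0.3), Lum and the lipid transporter Abca8a (1.83 ± 0.29).

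All 14 fibroblast genes rose (median 1.37, 13 without the 7 tumors). Their summed normalized counts were 2344, 3608 and 6375 in macrophage-rich and 435, 1279 and 3355 in macrophage-poor tumors. The fibroblast score and treatment accounted for 74.4% of the variance of the class term. Col3a1, fibrillar collagen type III, had 347, 563 and 1049 in macrophage-rich and 55.5, 182 and 494 in macrophage-poor tumors (1.6 ± 0.21, adjusted p = 2.24e-06). The proteoglycans Lum and Dcn rose by 1.85 ± 0.21 and 1.57 ± 0.2, and Col1a1 by 1.36 ± 0.21. Of 16 matrix protease and inhibitor genes, 8 rose and 0 fell (median 0.46, 9 without the 7). Mmp3, stromelysin, had 27.4, 46.6 and 78.01 in macrophage-rich and 2.47, 13.9 and 36.8 in macrophage-poor tumors (1.81 ± 0.23, adjusted p = 1.47e-06), the collagenase Ctsk rose by 1.76 ± 0.22 and the gelatinase Mmp2 by 1.52 ± 0.22. Mmp9, a gelatinase of neutrophils and macrophages, did not pass (0.07 ± 0.24, adjusted p = 0.868).

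Of 13 endothelial genes, 3 rose and 0 fell (median 0.28, 2 without the 7 tumors), beside 11.1% of all genes tested that rose, with Pecam1 at 16.2, 23.7 and 32.3 in macrophage-rich and 14.2, 17.9 and 25.8 in macrophage-poor tumors (0.33 ± 0.1, adjusted p = 0.0254, 0.0569 without the 7) and Tek higher by 0.71 ± 0.19. Without vehicle replicate 4, 5 endothelial genes rose. Of 8 pericyte genes 2 rose, Cspg4 (0.8 ± 0.24) and Pdgfrb (0.59 ± 0.16), and 1 without the 7. Of 5 lymphatic vessel genes 2 rose, Pdpn (0.78 ± 0.19) and Prox1 (0.58 ± 0.2), with 1 without the 7 and 1 without propylparaben replicate 1. Of 5 red cell and 7 skin genes 0 passed. The 12 skeletal muscle genes varied widely, with summed normalized counts of 8.56, 679 and 1938 in macrophage-rich and 5.81, 129 and 915 in macrophage-poor tumors, and 0 passed. Among 12 angiogenesis genes 4 rose and 2 fell (2 and 1 without the 7), with Angptl4 (1.12 ± 0.23) and Nrp1 (1.09 ± 0.18) higher and Vegfa and Pgf lower.

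Luminal epithelial genes mark the tumor cells of this model. Of 14, 0 rose and 0 fell (median -0.06), and 2 fell without methylparaben replicate 4. Krt8, a luminal keratin, had 50.5, 79.5 and 96.97 in macrophage-rich and 50.04, 74.3 and 137 in macrophage-poor tumors (-0.03 ± 0.11, adjusted p = 0.888), and Epcam 318, 438 and 582 in macrophage-rich and 235, 419 and 557 in macrophage-poor tumors. Of 9 hormone-sensing genes 2 rose, beside 11.1% of all genes tested, with 0 without the 7 tumors and 0 without vehicle replicate 5. The 2 genes were Esr1, the estrogen receptor (0.69 ± 0.22, adjusted p = 0.0252), and Gata3, the luminal transcription factor (0.49 ± 0.15, adjusted p = 0.0178). The Gata3 difference was 0.1 within methylparaben, 0.09 within propylparaben and 1.22 within vehicle tumors. Of 10 milk genes only Muc15 rose (0.68 ± 0.24, adjusted p = 0.0465), which did not pass without the 7 or without propylparaben replicate 1, and the casein Csn2 had 0, 0 and 43.4 in macrophage-rich and 0, 4.43 and 25.1 in macrophage-poor tumors (adjusted p = 0.239). Of 10 basal and myoepithelial genes 7 rose (median 0.99), among them Krt5 at 15.9, 46.7 and 98.9 in macrophage-rich and 3.08, 15.2 and 66.6 in macrophage-poor tumors (1.17 ± 0.35, adjusted p = 0.0173). That count was 0 without the 7 tumors, and 1 with edgeR and 1 with DESeq2 on recovered reads. Acta2, Myh11 and Cnn1 of that list are also smooth muscle genes. Of 10 genes of the epidermal growth factor loop, through which macrophages and tumor cells of this model are known to signal, 2 rose and 1 fell (1 and 0 without the 7). Over all genes tested, 11.1% rose and 6.21% fell. The receptor Egfr rose by 0.48 ± 0.13 and the ligand Ereg by 0.83 ± 0.18, the ligand Tgfa fell by 0.56 ± 0.17, and the macrophage ligands Egf (adjusted p = 0.939) and Hbegf (adjusted p = 0.767) did not pass.

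**Figure D4:**
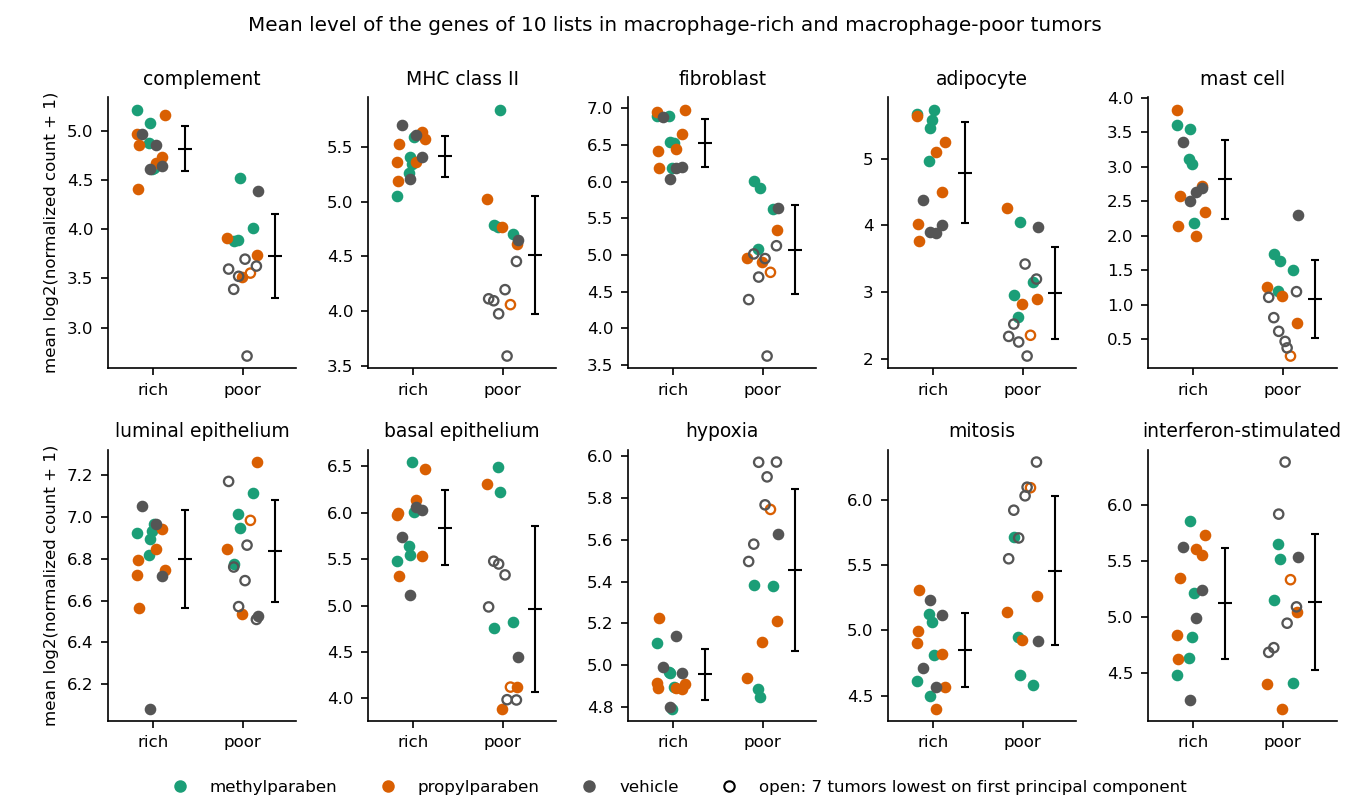
Mean log2(normalized count + 1) over the genes of 10 lists in the 15 macrophage-rich and 15 macrophage-poor tumors; each point is a tumor, colored by treatment, open symbols are the 7 tumors lowest on the first principal component, and bars show the class mean ± SD. The fibroblast list separates the classes, no luminal gene passed, and the 5 highest hypoxia levels and the 5 highest mitosis levels are open symbols.

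Of 20 hypoxia genes, which respond to low oxygen, 0 rose and 11 fell (median -0.45), and 2 fell without the 7 tumors (median -0.31), Egln3 and Vegfa. Egln3 (chr12:54178981-54203860, minus strand), a prolyl hydroxylase that marks hypoxia-inducible factor for decay and is itself induced by it, had 32.2, 42.1 and 96.8 in macrophage-rich and 48.96, 105 and 239.5 in macrophage-poor tumors. The classes overlapped, and the difference was -1.12 ± 0.16 (adjusted p = 7.21e-06), or -0.78 (adjusted p = 0.00158) without the 7. Vegfa (chr17:46016993-46032369, minus strand), the endothelial growth factor, had 14.3, 21.4 and 39.8 in macrophage-rich and 26.7, 66.03 and 136 in macrophage-poor tumors. Its difference was -1.24 ± 0.19 (adjusted p = 2.32e-05; -0.66 within methylparaben, -0.84 within propylparaben and -2.13 within vehicle tumors), and -0.9 (adjusted p = 0.0108) without the 7. The kinase Pdk1, which restrains pyruvate oxidation in mitochondria, differed by -0.56 ± 0.12. Ddit4, an inhibitor of mTORC1 signaling, differed by -0.54 ± 0.11 and Adm, the vessel-dilating peptide adrenomedullin, by -1.04 ± 0.27. Outside that list, the 12 largest falls included Ak4, a mitochondrial adenylate kinase (-1.18 ± 0.23), Pgf, placental growth factor (-1.1 ± 0.27), and Apln, apelin (-1.04 ± 0.23). Of these 6, 0 passed without the 7 tumors (lowest adjusted p = 0.0646, for Ddit4).

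The promoter of Egln3 at chr12:54203825-54204124 (minus strand, GRCm38.p6, RefSeq) is printed as that of the hypoxia gene with the smallest adjusted p, with capitals at ACGTG or GCGTG, the core that hypoxia-inducible factors bind, or at their complements CACGT and CACGC.
Egln3: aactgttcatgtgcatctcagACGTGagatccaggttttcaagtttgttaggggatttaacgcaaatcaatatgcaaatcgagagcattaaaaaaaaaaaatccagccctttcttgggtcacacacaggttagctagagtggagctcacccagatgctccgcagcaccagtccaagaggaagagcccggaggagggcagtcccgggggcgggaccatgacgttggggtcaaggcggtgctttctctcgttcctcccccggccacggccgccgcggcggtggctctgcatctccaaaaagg
Egln3 held 1 match. Of the 20 hypoxia genes, 18 had a promoter in the table and 15 of these (83.3%) held the motif, against 43.8% of 27025 promoters. It was present in 48.8% of 1187 promoters of genes that rose in macrophage-rich tumors and in 66.8% of 719 promoters of genes that fell. The hypoxia list was chosen for its response to low oxygen, so its share is a description. The base content of the promoters was not matched, and here too a match is not a measured site.

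Of 20 mitosis genes, 0 rose and 14 fell (median -0.54), against 0 without the 7 (median -0.16). Over all genes tested, 6.21% fell, and 0.974% without the 7. The 7 tumors had high mitosis levels, as given above, so the mitosis counts without them are a description. Of 20 DNA replication genes 8 fell (median -0.35), against 0 without the 7 and 3 without propylparaben replicate 1. Ccnb1, cyclin B1, had 7.61, 20.1 and 25.1 in macrophage-rich and 16.7, 33.7 and 59.6 in macrophage-poor tumors (-0.77 ± 0.16, adjusted p = 9.40e-04), and Mki67 37.6, 54.8 and 78.9 in macrophage-rich and 43.4, 77.5 and 134 in macrophage-poor tumors (adjusted p = 0.0564). Spag5, a spindle protein outside these lists, had 5.14, 8.20 and 16.9 in macrophage-rich and 9.52, 23.8 and 40.6 in macrophage-poor tumors (-1.25 ± 0.2, adjusted p = 4.59e-05) and passed without the 7 (-1.01, adjusted p = 0.00505). Of 20 ribosomal protein genes 7 fell (median -0.18), 0 without the 7 and 3 without vehicle replicate 5. The other large falls were Slc6a15, a neutral amino acid transporter (-1.27 ± 0.35), Reep1 (-1.12 ± 0.23), Psrc1 (-1.06 ± 0.21), Akap12 (-1.002 ± 0.3) and the noncoding Snhg14 (-1.01 ± 0.16), which overlaps other transcripts. Without the 7 tumors, Reep1 (adjusted p = 0.0933) and Akap12 (0.181) did not pass.

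The macrophage score that formed the classes also varied among the 29 middle tumors, which entered neither class. Genes made by the same cells as the 4 score genes move with it by construction there too. The slope of each gene on that same score was fitted in the middle tumors with treatment as a covariate. There 25 genes (0.173% of 14483) had an upward slope and 3 (0.0207%) a downward slope past an adjusted p of 0.05, over a score range of 5.12 to 5.57. Leaving out 1 middle tumor at a time gave 7 (without vehicle replicate 11) to 67 (without vehicle replicate 6) upward and 0 to 18 downward, with the extremes from the same 2 tumors. Without methylparaben replicate 5, whose share of reads from mitochondrial genes was 11.5%, 54 and 14 passed, and without the 3 middle tumors with a scaling factor under 0.9, that one among them, 43 and 7. Of the 1612 genes that rose in macrophage-rich tumors, 1471 had an upward slope, 24 of them past the threshold, and of the 899 that fell, 744 had a downward slope, 1 past the threshold (Espn). Of all genes tested, 7674 had an upward slope. Clec10a changed by 4.99 ± 0.69 log2 units per unit of score (SE, limma adjusted p = 4.94e-04), Ccl8 by 3.12 ± 0.45 (adjusted p = 5.60e-04) and Retnla by 6.74 ± 1.36 (adjusted p = 0.0241). Itgam (1.76 ± 0.36), C1qc (1.19 ± 0.23) and C1s1 (2.45 ± 0.48) also passed. Others, named after their values were seen, were the interferon-inducible Ifi205 (3.66 ± 0.56), the leukotriene factor Alox5ap (1.47 ± 0.27), properdin, Cfp (2.35 ± 0.48), and Cd209f (4.76 ± 0.9).

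All 13 adipocyte genes had an upward slope in the middle tumors (median 5.15), as had all 14 fibroblast genes (median 1.78), all 12 skeletal muscle genes (median 6.49), all 13 complement genes (median 1.96) and all 9 MHC class II genes (median 1.21), beside a median of 0.04 over all genes tested. Past the threshold were 3 of the complement genes and 0 of the adipocyte, fibroblast, skeletal muscle and MHC class II genes. All 20 mitosis genes had a downward slope (median -1.44), with 0 past the threshold. On simulated data, the slope fit recovered 12% of genes with a slope of 1 and 48% with a slope of 2. Slopes of that size can therefore be missed. The part of fat, muscle and fibroblast content in the slopes of other genes was not tested.

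**Figure D5:**
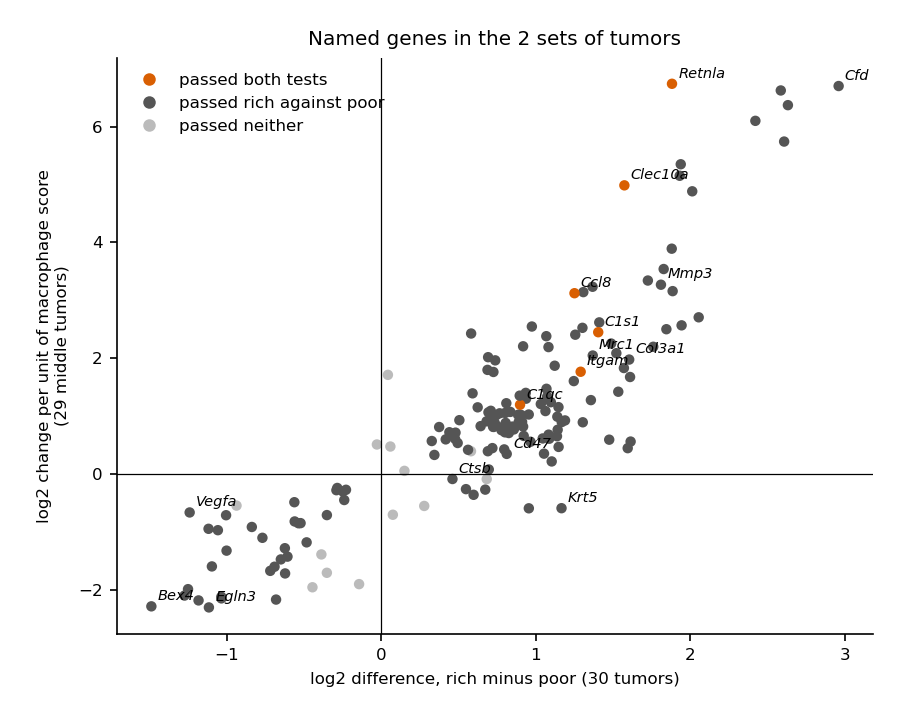
Slope of log2(normalized count + 1) on the macrophage score in the 29 middle tumors (vertical) against the log2 difference, rich minus poor, in the 30 tumors of the 2 classes (horizontal), for the genes chosen by rule; orange points passed both tests. Retnla, Clec10a, Ccl8, C1s1, Itgam and C1qc passed both, and most points lie in the upper right and lower left.

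Over all 59 tumors, as a description, the genes that followed the score most closely by the t of a slope fitted with treatment were C3ar1, H2-Eb1, H2-Aa, Laptm5, Fcer1g, H2-Ab1, C1qb, C1qc, Ms4a6c and Cybb. Most negative were Mif, Cip2a, Aldh5a1, Egln3 and Bex4. Mif, the macrophage migration inhibitory factor, had 66.8, 85.1 and 119 in macrophage-rich and 75.4, 142 and 209 in macrophage-poor tumors (-0.62 ± 0.12, adjusted p = 4.60e-04), and did not pass without the 7 tumors (adjusted p = 0.0873).

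Reads in introns, a common measure of unspliced RNA, were counted by the authors in a separate table. Of 14279 genes tested on introns, 700 (4.9%) were higher and 182 (1.27%) lower in macrophage-rich tumors, against 173 and 6 without the 7 tumors. Among the genes that rose in the gene table, 1344 were tested on introns, 1286 of them had an intronic difference above 0, and 541 were higher by the test. Among those that fell, 761 were tested, 678 had an intronic difference below 0 and 81 were lower by the test. In introns, Ccr2 had 372, 559.7 and 822 in macrophage-rich and 73.7, 177 and 413 in macrophage-poor tumors (log2 difference 1.54 ± 0.16, adjusted p = 1.02e-07). Maf rose there by 1.28 ± 0.15, Mrc1 by 1.35 ± 0.18 and Ctsc by 0.97 ± 0.12, while Egln3 fell, with a difference of -1.18 ± 0.24 (adjusted p = 0.00159). Other named genes did not pass on introns, among them Folr2 (-0.19, limma adjusted p = 0.861), Fcgr3 (0.06, 0.962), Vegfa (-0.78, 0.208) and Cfd (0.75, 0.113).

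Whether the class difference itself depended on treatment was tested as the effect in paraben tumors (9 methylparaben and 10 propylparaben, 11 macrophage-rich and 8 macrophage-poor) against that in vehicle tumors (4 and 7). Of 14483 genes, 18 (0.124%) passed, 4 with a higher and 14 with a lower effect in paraben tumors. With the classes formed from the 5 highest and 5 lowest scores of each treatment, 17 with a higher and 55 with a lower effect passed. Gata3 was among them, with a difference of effects of -1.13 ± 0.24 (SE, limma adjusted p = 0.0353). Of the 7 macrophage-poor vehicle tumors 6 belong to the 7 lowest on the first principal component, so vehicle and that profile cannot be told apart in this test. The Mrc1 difference was 1.03 within methylparaben, 1.67 within propylparaben and 1.38 within vehicle tumors.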

How the data were processed

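Total RNA of 59 flash-frozen mammary tumors was sequenced. Per the submitters' processing notes, the authors used bcl2fastq 2.20.0.422, STAR 2.6.1d and HTSeq 0.10.0 on GRCm38. The sources used here do not give the annotation, the strand setting or the definition of introns, so overlapping and antisense genes cannot be told apart, and near-identical copies (Clec10a and Mgl2, Lyz2 and Lyz1, Ly6c2 and Ly6c1, ribosomal protein genes) are uncertain. The deposited tables hold a normalized signal, read counts per gene or per gene's introns scaled by 1 factor per library. There are 55421 gene rows and 33282 intron rows, and 5 summary lines of the counting stayed out of all tests. Low values gave the factors back, and 100% of gene values were then whole reads within 1e-06 reads. Libraries held 1166502 to 2032789 reads on genes, and no 2 libraries of 1 treatment agreed within sampling noise. Names and positions are from GENCODE M21 (55240 IDs matched).

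Values were taken as log2(value + 1) for genes with a mean of at least 1 over 59 tumors and fitted with limma 3.58.1 (trend, R 4.3.3) on class and treatment over the 30 tumors. P-values were Benjamini-Hochberg adjusted over all genes other than the 4 score genes, and genes under 0.05 are said to have risen or fallen in macrophage-rich relative to macrophage-poor tumors. A fold change on this scale understates that of low genes. The same fit served the introns and, with the score in place of class, the slope in the 29 middle tumors. The difference of effect between paraben and vehicle tumors was fitted on class, paraben exposure with both parabens pooled, and their product. On simulated counts of independent genes, the class fit recovered 60% of genes changed 1.5-fold and 74% of those changed 2-fold. The slope fit recovered 12% at a slope of 1 and 78% at a slope of 4, with the spread of each gene taken from the 30 tumors.

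Named were the score genes, the 12 largest rises and falls with a mean of at least 10, up to 4 members of each list with the smallest p among those that passed, a fixed set of macrophage, immune and epithelial genes, and the genes closest to the score, 10 positive and 5 negative. Some genes of this rule are not reported here. The classes, gene lists and named genes were chosen with earlier results of these data known. Replicates are numbered in the order of the samples. Alternatives were edgeR 4.0.16 and DESeq2 1.42.0 on recovered reads, other scalings, filters, pseudocounts, scores, class sizes and covariates, and each tumor left out. The exclusion of the 7 tumors, that of tumors with a scaling factor under 0.9 and that of each middle tumor were chosen after seeing the data.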

Additional observations from a re-analysis of the deposited data

Results flagged for a closer look

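The difference between macrophage-rich and macrophage-poor tumors differed between paraben and vehicle tumors for 18 of 14483 genes in a limma test of that difference, and 1558 had an unadjusted p under 0.05. With the 5 highest and 5 lowest scores of each treatment as the classes, 17 genes with a higher and 55 with a lower effect passed. The values that follow are the effect in paraben tumors minus that in vehicle tumors on the log2 scale. It was positive for Slc1a5 (2.2), AU018091 (1.99), Pfkfb3 (1.61) and Cyc1 (0.701). It was negative for Gabra4 (-3.97), 9530014B07Rik (-2.52), Sytl2 (-2.4), Adgrg2 (-2.11), Sptlc3 (-1.91), Fam84a (-1.89), Etv1 (-1.56), Pcdh18 (-1.31), Arhgef6 (-1.27), Slco2a1 (-1.15), Gata3 (-1.13), Ppp3ca (-0.897), Tapt1 (-0.858) and Serinc3 (-0.617). Slc1a5, a glutamine transporter, had macrophage-rich minus macrophage-poor differences of 0.92 within methylparaben, 0.998 within propylparaben and -1.25 within vehicle tumors (SE of the difference of effects 0.3, limma adjusted p = 2.47e-04). Of the 7 macrophage-poor vehicle tumors, 6 are among the 7 lowest on the first principal component, and a fit without them would leave 1 macrophage-poor vehicle tumor, so it was not made.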

How the results depend on the processing

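Over 30 tumors, 1612 genes were higher and 899 lower. These counts were 775 and 141 without the 7 tumors lowest on the first principal component, 814 and 262 with the mitosis score as a covariate, and 0 and 0 with the 5 tissue scores. With a mean of at least 10, which left 9139 genes, 1036 were higher, and 587 were lower with a score without Csf1r. Leaving out 1 tumor at a time gave 1334 to 1721 higher and 577 to 1009 lower, with 577 without vehicle replicate 5. In introns, 173 were higher and 6 lower without the 7 tumors, against 700 and 182 with them, and 317 were lower without the treatment covariate. Without tumors with a scaling factor under 0.9, the slope in the middle tumors passed for 43 upward and 7 downward, against 25 and 3, and leaving out 1 middle tumor at a time gave 7 to 67 upward and 0 to 18 downward. With the 5 highest and 5 lowest scores of each treatment, the difference of effect passed for 17 higher and 55 lower, against 4 and 14. With 5 tissue scores added, named genes that had passed took the other sign, none of them past the threshold, at log2 differences of -0.0701 (Col1a1), -0.371 (Cd163), -0.0702 (Prox1), -0.249 (Cybb), -0.0676 (Fli1), -0.16 (Esr1), -0.102 (Dcn), -0.178 (Egfr), -0.0585 (Pecam1), -0.051 (Adipoq), -0.042 (Pdgfrb), -0.407 (Nrp1), -0.148 (Col3a1), -0.239 (Hdc), -0.401 (Car3), -0.00835 (Ctsk), -0.0495 (Tyrobp), -0.183 (Il34), -0.0163 (Cspg4), 0.267 (Cip2a), -0.0399 (H2-Aa), -0.0682 (C1s1), -0.0831 (Ctss), -0.0832 (Mgl2), -0.253 (Muc15), -0.0575 (H2-Eb1), -0.0158 (B2m), -0.415 (Cfd), and the cause was not tested. Of the genes that took the other sign, Col1a1, Col3a1 and Dcn are members of the fibroblast score, and Adipoq, Car3 and Cfd of the adipocyte score. Treatment and the 5 scores accounted for 79.0% of the variance of the class term, so these signs are a description only. Among named genes, leaving out 1 tumor at a time ended the call of Ccl2, Esr1, Gata3, Muc15 and Prox1 at least once and gave a call to Cd8a, Mki67 and S100a8 at least once. On recovered whole reads, edgeR called 1464 higher and 1015 lower and DESeq2 1522 and 1121. The other scalings, pseudocounts, edgeR and DESeq2 turned the sign of 0 named genes that had passed. No paired analysis was possible because nothing ties a tumor of 1 class to a tumor of the other, and replicate numbers follow the order of the samples. Counting error is widest in genes of few reads, and genes with a mean under 1 were not tested.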
